A study of Mus musculus with 6 samples.

Results

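DNA repair genes were examined for occupancy by HCFC1, a chromatin coregulator that is brought to promoters by DNA-binding partners. The genes were chosen by name, as those whose symbols begin with Fanc, Rad, Xrcc, Brca, Msh, Mlh, Ercc or Parp followed by the letter or digit of a family member. The mouse RefSeq table held 67 protein-coding genes with such names, and 62 of them had at least 1 peak assigned by the authors in at least 1 list, out of 16216 genes with a peak in any list. The peaks came from chromatin immunoprecipitation followed by sequencing (ChIP-seq) of Hepa1-6, an established mouse hepatoma line. Cells received a scrambled control siRNA pool (siC), siRNA against ERRα (siERRα), the orphan nuclear receptor encoded by Esrra, or siRNA against HCFC1 (siHCFC1), given at 100 nM and again after 48 h, 200 nM in total over 96 h. The series holds 6 libraries, 3 with an HCFC1 antibody and 3 with IgG, and each HCFC1 library pooled 2 immunoprecipitations.

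Each condition therefore had 1 peak list and no replicate, and no p-value was computed. The control list held 36147 peaks, the ERRα-knockdown list 21881 and the HCFC1-knockdown list 12610, of which the repair genes had 107, 83 and 33. The read depth behind the lists is unknown, and RNA and protein, which would show the extent of each knockdown and the cell type, were not analysed here. The proximal peak of Hcfc1 itself scored 1924 in control cells and was missing from the HCFC1-knockdown list. Esrra had a proximal peak in all 3 lists. Neither shows how far the protein fell. The control list alone contains peaks more than 20000 bp from a gene start, so comparisons were made near starts. Positions are on the mm10 build.

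DNA repair is divided among pathways that each handle one kind of damage. The Fanconi anaemia proteins deal with crosslinks between strands, homologous recombination copies an intact template into a broken duplex, and end joining ligates broken ends directly. Nucleotide excision repair cuts out bulky lesions such as those made by ultraviolet light, mismatch repair corrects replication errors, and the PARP enzymes with Xrcc1 act at single-strand breaks. Many repair genes are induced as cells enter S phase, when E2F factors are active, and HCFC1 is known both as a cell cycle regulator and as a partner of THAP11, ZFP143 and E2F proteins.

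RefSeq promoter windows, which run from 250 bases before to 50 after a start, are shown for 4 genes. Rad18 and Rad51b were the only 2 of 50 repair genes with a window to hold the THAP11/ZFP143 core searched here, TACANNTCC, whose letters are in capitals. Rad1 had the highest-scoring control peak assigned to a repair gene. Brca1 was added after its values were seen, since the peak at its start scored higher still but was assigned to the neighbouring gene Nbr1. Each window is written 5′ to 3′ in the direction of the gene, on build GRCm38.p6. It spans chr6:112696621-112696920 on the minus strand for Rad18, chr12:79297032-79297331 on the plus strand for Rad51b, chr15:10485768-10486067 on the plus strand for Rad1 and chr11:101551906-101552205 on the minus strand for Brca1.
Rad18: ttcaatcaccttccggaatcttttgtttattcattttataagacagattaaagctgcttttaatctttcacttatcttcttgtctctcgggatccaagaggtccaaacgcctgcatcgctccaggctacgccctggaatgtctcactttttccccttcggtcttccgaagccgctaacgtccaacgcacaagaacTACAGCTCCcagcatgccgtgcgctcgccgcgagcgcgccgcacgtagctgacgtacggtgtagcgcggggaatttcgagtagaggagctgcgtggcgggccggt
Rad51b: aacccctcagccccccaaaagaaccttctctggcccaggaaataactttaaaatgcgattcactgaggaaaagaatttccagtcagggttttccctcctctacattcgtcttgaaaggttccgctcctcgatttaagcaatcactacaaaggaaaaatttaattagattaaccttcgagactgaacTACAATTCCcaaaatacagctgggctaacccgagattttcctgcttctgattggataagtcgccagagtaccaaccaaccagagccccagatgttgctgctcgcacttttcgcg
Rad1: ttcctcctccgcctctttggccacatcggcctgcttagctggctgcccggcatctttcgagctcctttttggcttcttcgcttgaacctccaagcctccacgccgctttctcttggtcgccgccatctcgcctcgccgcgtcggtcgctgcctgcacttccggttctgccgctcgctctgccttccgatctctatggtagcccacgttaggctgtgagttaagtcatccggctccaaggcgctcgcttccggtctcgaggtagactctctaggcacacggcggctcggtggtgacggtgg
Brca1: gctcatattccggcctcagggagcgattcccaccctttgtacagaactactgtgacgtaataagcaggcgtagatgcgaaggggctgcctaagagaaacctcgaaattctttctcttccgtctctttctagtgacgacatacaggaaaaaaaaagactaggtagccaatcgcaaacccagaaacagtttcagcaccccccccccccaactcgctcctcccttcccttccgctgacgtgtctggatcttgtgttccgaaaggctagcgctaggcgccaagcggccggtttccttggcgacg

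A proximal peak was one whose centre lay at most 1000 bp from the nearest transcription start by the deposited distance, and each gene was represented by its highest-scoring proximal peak. In control cells 52 of the 67 repair genes had one (77.6%, exact binomial 95% interval 65.8 to 86.9%), against 44.2% of all 21900 protein-coding genes. The same number, 52, had one in the ERRα-knockdown list, against 45.1% of all genes. The HCFC1-knockdown list had one for 26 (38.8%, 27.1 to 51.5%), against 29.3%. By this rule the intervals of the control and ERRα-knockdown shares lay above the share of all genes, and that of the HCFC1-knockdown share included it. Counted at RefSeq starts, as given further on, the HCFC1-knockdown interval lay above the share of all genes too. Intervals cover counting error only. The promoter windows of repair genes also held more CpG than those of all protein-coding genes. The median was 24 sites against 15, with a G+C content of 59.3% against 57.3%. Among genes with a control peak at the start the medians were closer for CpG, 25 sites against 23. There the G+C content was lower in repair genes, 59.7% against 63%. The part of base composition in these shares was not tested.

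Where a repair gene had a control peak, its score and width were close to those of other genes. The median control score was 106 for the 52 repair genes and 106 for all 9689 genes with a proximal peak, and the median widths were 912 and 973 bp. In the ERRα-knockdown list the repair genes had a median score of 142, against 183 for all genes, and in the HCFC1-knockdown list 54.5 against 50. The score is the authors' own value, with no stated unit. Scores of the 3 lists are printed side by side below, but their scales are not known to match. A difference in score between lists is therefore not a measured change in binding. Repair gene scores ran from 21 at Rad51c to 2122 at Rad1. The peak centre lay downstream of the start for 39 genes (75.0%, against 74.1% of all genes), and 28 peaks carried the promoter label while 13 were labelled intron, 5 exon, and 3 each 5′ UTR and non-coding.

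**Figure D1:**
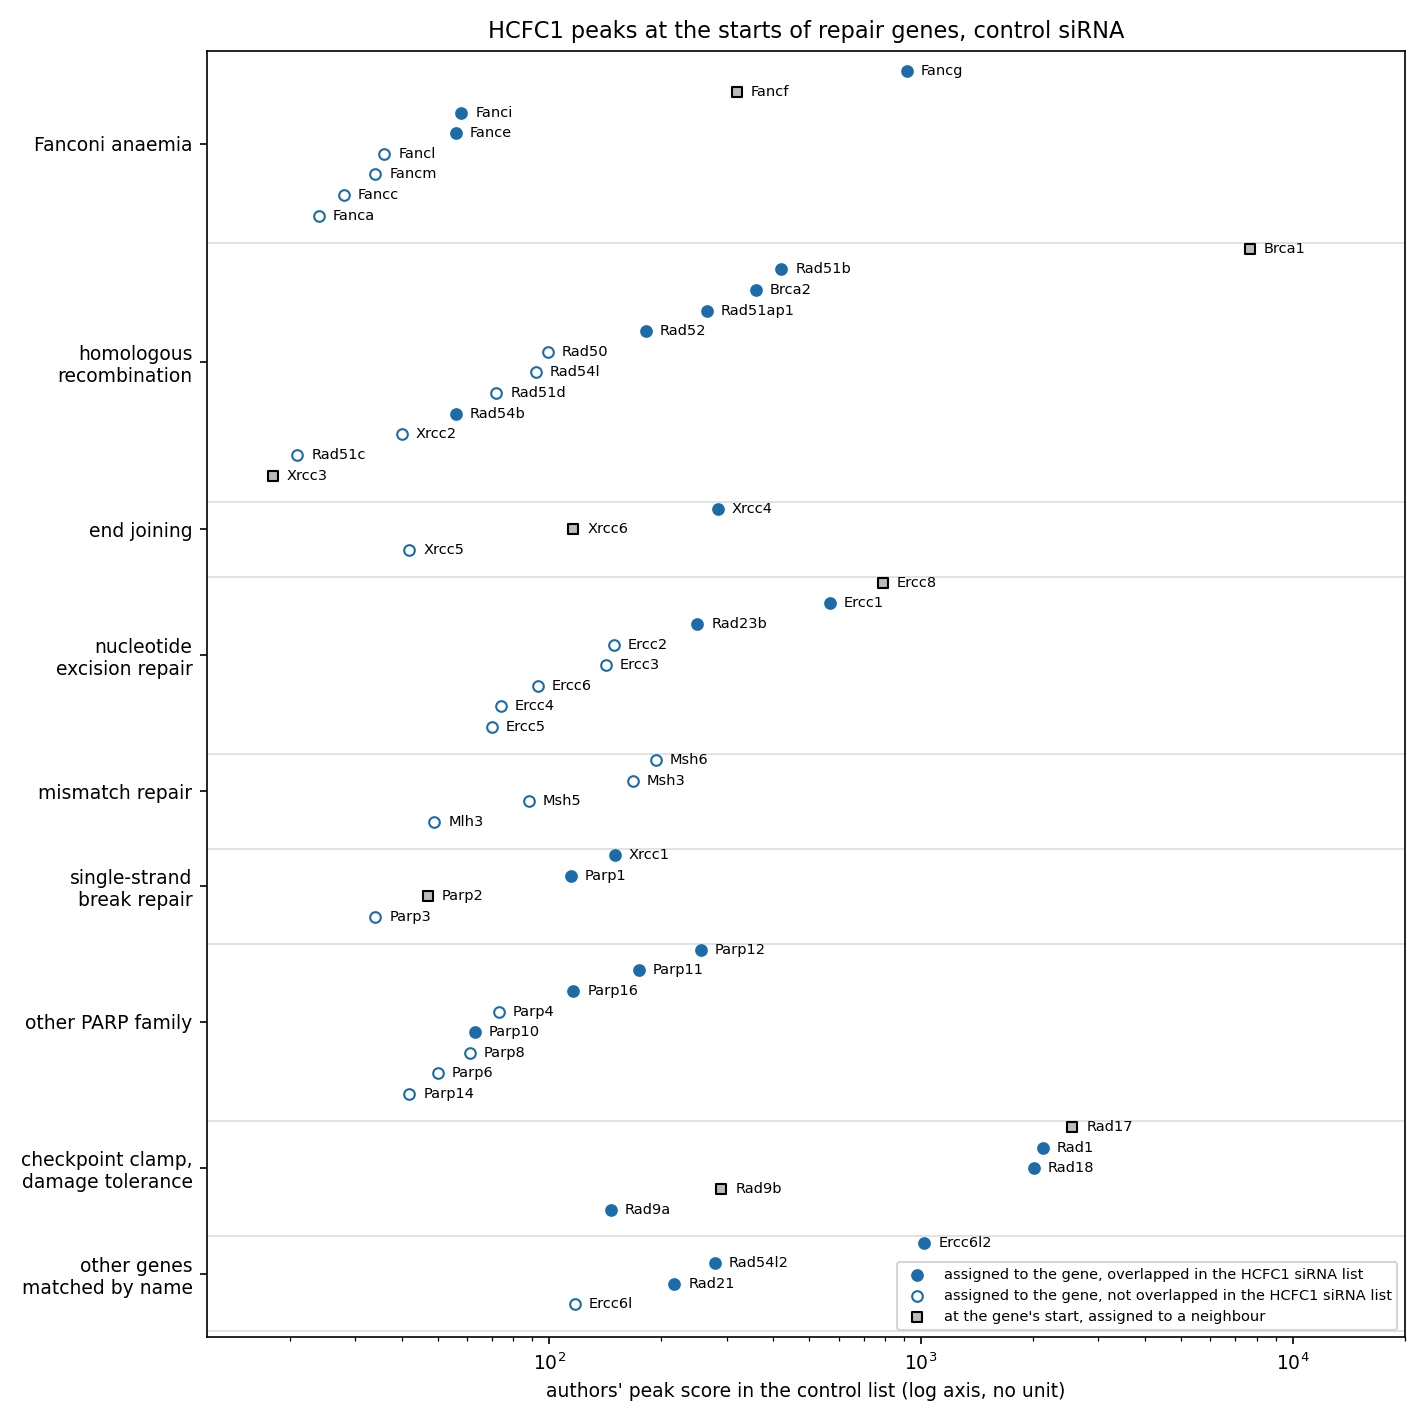
Authors' peak score in the control list (log axis) for the repair genes named in the text, grouped by pathway, 1 symbol per gene. Filled circles are peaks overlapped in the HCFC1-knockdown list, open circles are peaks that were not, and grey squares are peaks at a gene's start that the authors assigned to a neighbour. All circles at 200 and above are filled and all below 50 are open.

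All 52 control peaks shared 1 bp or more with a peak of the ERRα-knockdown list, here called overlap (100%, 93.2 to 100%), against 91.8% of all genes with a proximal control peak. In the HCFC1-knockdown list 26 of the 52 were overlapped (50.0%, 35.8 to 64.2%), against 59.7%. The overlapped genes included Brca2, Ercc1, Ercc6l2, Fance, Fancg, Fanci, Parp1, Parp10, Parp11, Parp12, Parp16, Rad1, Rad18, Rad21, Rad23b, Rad51ap1, Rad51b, Rad52, Rad54b, Rad54l2, Rad9a, Xrcc1 and Xrcc4. The pathways differed in these counts, but each holds few genes, and their differences were not tested. The pathway counts below stand beside shares of all genes of 44.2% with a proximal control peak and 59.7% overlapped after HCFC1 knockdown.

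**Figure D2:**
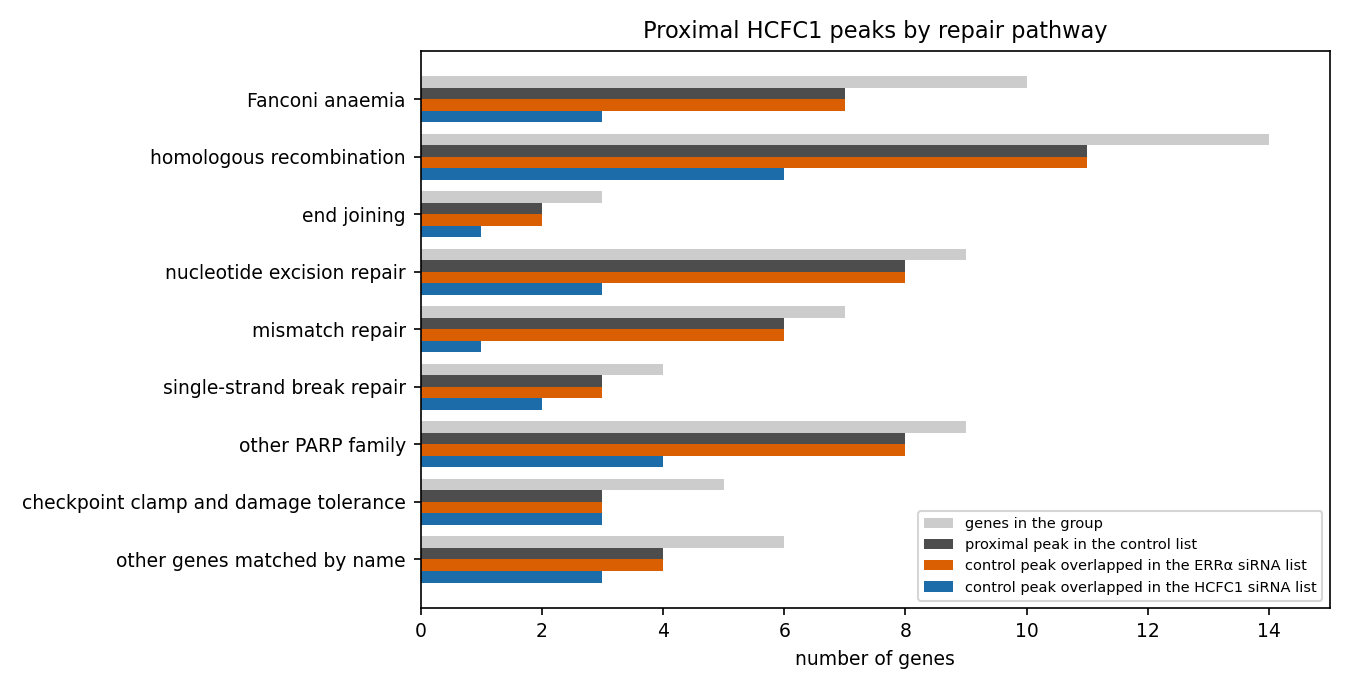
Number of genes in each repair group, with a proximal control peak, and with that peak overlapped in the ERRα- or HCFC1-knockdown list. The ERRα bars equal the control bars in every group, while the HCFC1 bars range from 1 of 6 in mismatch repair to 3 of 3 in the checkpoint group.

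The checkpoint clamp and damage tolerance group had the highest median control score of the pathways, 2012, over 3 of 5 genes. Among control peaks assigned to repair genes, those of Rad1 and Rad18 in this group scored highest. Rad1, a subunit of the ring-shaped clamp that signals damaged DNA, had its control peak at chr15:10485171-10487061 (1891 bp, score 2122), ranked 296 of 9689 genes. The HCFC1-knockdown list held a narrower peak at chr15:10485574-10486521 (948 bp, score 201). In the ERRα-knockdown list a peak at chr15:10484987-10486809 (1823 bp, score 2390) covered the Rad1 start but was assigned to the neighbour Brix1, whose start is 81 bp away. Rad18, the ubiquitin ligase that marks the sliding clamp at stalled forks, had peaks in all 3 lists. They lay at chr6:112695648-112697624 (1977 bp, score 2012) in control cells, chr6:112694840-112699505 (4666 bp, score 4159) after ERRα knockdown and chr6:112695993-112697500 (1508 bp, score 700) after HCFC1 knockdown. The letters in capitals in the Rad18 window lay within each of the 3 peaks. Rad9a, a further clamp subunit, scored 146 in control cells, 111 in the ERRα list and 29 in the HCFC1-knockdown list. All 3 genes of this group with a proximal control peak were overlapped in both knockdown lists.

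Homologous recombination had 11 of 14 genes with a proximal control peak and a median score of 99. Rad51b, a recombination mediator, had chr12:79295944-79297727 (1784 bp, score 421), chr12:79295301-79298300 (3000 bp, score 503) and chr12:79297091-79297746 (656 bp, score 85) in the control, ERRα-knockdown and HCFC1-knockdown lists. The wide control peak over Rad51b also held the start of Zfyve26, and the HCFC1-knockdown list had a separate peak of score 54 there. Brca2, the tumour suppressor that prepares broken ends for strand exchange, had chr5:150522012-150523027 (1016 bp, score 360), chr5:150522131-150523095 (965 bp, score 725) and chr5:150522418-150523007 (590 bp, score 141) in the same order. Rad51ap1, which promotes strand pairing, scored 265 in control cells. Rad52, a strand-annealing protein, scored 182, and Rad54b, a motor protein, 56. Each of these genes was overlapped after HCFC1 knockdown.

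The 5 recombination genes without an overlapping peak after HCFC1 knockdown all scored below 100. Rad50, the ATPase of the end-resection complex, had a control peak at chr11:53707039-53707587 (549 bp, score 99) and an ERRα-knockdown peak at chr11:53706756-53707640 (885 bp, score 136). Rad54l, a motor protein of strand exchange, had chr4:116123370-116124135 (766 bp, score 92) and chr4:116123315-116124005 (691 bp, score 120). The mediator Rad51d had chr11:82889566-82890688 (1123 bp, score 72) and chr11:82889720-82890679 (960 bp, score 112). Its partner Xrcc2 had chr5:25705415-25705866 (452 bp, score 40) and chr5:25705260-25705908 (649 bp, score 88). Rad51c, another mediator, had the lowest score of all members, at chr11:87404528-87405141 (614 bp, score 21), with chr11:87404141-87405166 (1026 bp, score 66) after ERRα knockdown. The recombination genes thus split by score, with all 5 at 100 or above overlapped after HCFC1 knockdown and 1 of 6 below.

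The Fanconi anaemia genes were mostly occupied by weak peaks. Proximal control peaks were found at 7 of 10 genes, with a median score of 36. Fancg, a core complex subunit, stood far above the rest, at chr4:43009622-43012094 (2473 bp, score 914) in control cells. The ERRα-knockdown peak at chr4:43008101-43012296 (4196 bp, score 1623) spanned this peak and a weaker control peak downstream, and the HCFC1-knockdown list held chr4:43009712-43010888 (1177 bp, score 277). Fanci, which forms the clamp with Fancd2, had chr7:79391782-79392663 (882 bp, score 58) in control cells, chr7:79391856-79392702 (847 bp, score 111) after ERRα knockdown and chr7:79392037-79392642 (606 bp, score 45) after HCFC1 knockdown. Fance, the core subunit that contacts Fancd2, scored 56 in control cells and 13, the lowest score listed, after HCFC1 knockdown.

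The other 4 occupied Fanconi genes had control peaks of score 36 or less, and none was overlapped after HCFC1 knockdown. Fancl, the ubiquitin ligase subunit, had chr11:26387195-26387530 (336 bp, score 36) in control cells and chr11:26387195-26387593 (399 bp, score 94) after ERRα knockdown. Fancm, a DNA translocase that recruits the core complex, had chr12:65075575-65075824 (250 bp, score 34) and chr12:65075425-65076023 (599 bp, score 104). The core subunits Fancc and Fanca had chr13:63431587-63431982 (396 bp, score 28) and chr8:123318327-123318613 (287 bp, score 24) in control cells. Their ERRα-knockdown peaks lay at chr13:63431172-63432116 (945 bp, score 77) and chr8:123318297-123318780 (484 bp, score 53). Each of the 4 genes thus had a peak in the ERRα list over its control peak.

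Mismatch repair had 6 of 7 genes with a proximal control peak (42.1 to 99.6%, against 44.2% of all genes). Of these, 1 of 6 was overlapped after HCFC1 knockdown (0.421 to 64.1%, against 59.7%). Both intervals include the share of all genes. Msh6, the subunit that recognises base mismatches, had chr17:87974701-87975739 (1039 bp, score 193) in control cells and chr17:87974612-87975790 (1179 bp, score 314) after ERRα knockdown. No HCFC1-knockdown peak overlapped it, although its score was the highest of the 26 members without one. Msh3, which replaces Msh6 for larger loops, had chr13:92354503-92355724 (1222 bp, score 168) in control cells. It was overlapped after ERRα knockdown but not after HCFC1 knockdown.

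Weaker control peaks lay at Msh5 and Mlh3. Msh5, a meiotic recombination factor, had chr17:35045892-35047074 (1183 bp, score 88) and chr17:35045925-35046997 (1073 bp, score 149) in the control and ERRα lists. Mlh3, which also acts in meiosis, had chr12:85270344-85270683 (340 bp, score 49) and chr12:85270285-85270680 (396 bp, score 72). No mismatch repair gene had a proximal HCFC1-knockdown peak under its own name (0 of 7, 0 to 41%), against 29.3% of all genes. The interval includes that share, so the count is not shown to differ from it.

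Nucleotide excision repair had 8 of 9 genes with a proximal control peak, at a median score of 146. Ercc1, the partner subunit of the Ercc4 nuclease, had chr7:19344489-19346321 (1833 bp, score 568) in control cells, chr7:19343841-19346293 (2453 bp, score 947) after ERRα knockdown and chr7:19344742-19345306 (565 bp, score 54) after HCFC1 knockdown. Rad23b, which stabilises the damage sensor Xpc, had chr4:55349373-55351054 (1682 bp, score 250), chr4:55348794-55350975 (2182 bp, score 476) and chr4:55349619-55350857 (1239 bp, score 92) in the same order. Both were overlapped after HCFC1 knockdown. In all, 3 of the 8 genes were, and the 5 with the lowest scores were not.

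The 5 excision repair genes whose control peak was not overlapped after HCFC1 knockdown encode helicases, nucleases and a remodeller. The TFIIH helicase Ercc2 had chr7:19381634-19382515 (882 bp, score 149) in control cells and chr7:19381546-19382842 (1297 bp, score 276) after ERRα knockdown. The HCFC1-knockdown list gave Ercc2 only a distal peak, at chr7:19375193-19375562 (370 bp, score 33). The TFIIH translocase Ercc3 had chr18:32239913-32240576 (664 bp, score 142) and chr18:32239877-32241130 (1254 bp, score 255). The transcription-coupled repair factor Ercc6 had chr14:32513500-32513898 (399 bp, score 93) and chr14:32513383-32514134 (752 bp, score 221). The nuclease Ercc4 had chr16:13109877-13110422 (546 bp, score 74) and chr16:13109784-13110713 (930 bp, score 121), and the nuclease Ercc5 had chr1:44147499-44148635 (1137 bp, score 70) and chr1:44147305-44148758 (1454 bp, score 324). The starts of Ercc1 and its nuclease partner Ercc4 differed in the HCFC1-knockdown list, where Ercc1 had a peak and Ercc4 had none.

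Single-strand break repair had 3 of 4 genes with a proximal control peak. The scaffold Xrcc1 had chr7:24546246-24547522 (1277 bp, score 150), chr7:24546418-24547510 (1093 bp, score 285) and chr7:24546831-24547428 (598 bp, score 34) in the control, ERRα-knockdown and HCFC1-knockdown lists. The break sensor Parp1 had chr1:180568828-180569768 (941 bp, score 114), chr1:180568737-180569477 (741 bp, score 134) and chr1:180568759-180569164 (406 bp, score 29). Parp3, a sensor related to Parp1, had chr9:106476443-106477094 (652 bp, score 34) in control cells and no HCFC1-knockdown peak. After ERRα knockdown the control peak of Parp3 was overlapped only at its edge, by chr9:106476954-106478025 (1072 bp, score 47), assigned to Rrp9. The peaks shared 141 bp, and their centres lay 721 bp apart.

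End joining had 2 of 3 genes with a proximal control peak. Xrcc4, the partner of DNA ligase IV, had chr13:90089059-90090102 (1044 bp, score 284) in control cells and chr13:90088917-90090356 (1440 bp, score 556) after ERRα knockdown. Its HCFC1-knockdown overlap, chr13:90089563-90090054 (492 bp, score 93), was assigned to Tmem167, which starts 59 bp away on the other strand. Xrcc5, the larger Ku subunit, had chr1:72307341-72307882 (542 bp, score 42) and chr1:72307296-72307834 (539 bp, score 205) in the control and ERRα lists and none in the HCFC1-knockdown list. Xrcc6, the smaller Ku subunit, had a proximal peak of its own name only in the HCFC1-knockdown list, at chr15:82016434-82016689 (256 bp, score 32), and this lay under a control peak assigned to Desi1.

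The other PARP genes, most of which encode enzymes that add single ADP-ribose units, had 8 of 9 members with a proximal control peak and a median score of 68. Parp12, an interferon-induced member, had chr6:39117488-39119032 (1545 bp, score 255) in control cells and chr6:39117556-39119067 (1512 bp, score 69) after HCFC1 knockdown. In the ERRα list the overlapping peak, chr6:39117503-39119402 (1900 bp, score 588), was assigned to 4930599N23Rik. Parp11 had chr6:127453231-127454238 (1008 bp, score 174), chr6:127453341-127454312 (972 bp, score 782) and chr6:127453201-127454091 (891 bp, score 49) in the control, ERRα-knockdown and HCFC1-knockdown lists. Parp16, a tail-anchored enzyme of the endoplasmic reticulum, scored 116 in control cells and 28 after HCFC1 knockdown, and Parp10 scored 63 and 26. These 4 genes were overlapped after HCFC1 knockdown.

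The other 4 PARP genes were not overlapped. Parp4, a component of vault particles, had chr14:56575464-56575849 (386 bp, score 73) in control cells and chr14:56575322-56575810 (489 bp, score 105) after ERRα knockdown. Parp6 had chr9:59616680-59617729 (1050 bp, score 50) and chr9:59617056-59617805 (750 bp, score 51), and Parp14, a macrodomain protein of immune signalling, had chr16:35870816-35871346 (531 bp, score 42) and chr16:35870916-35871236 (321 bp, score 74). Parp8 was the one member whose HCFC1-knockdown peak sat apart from its control peak. Its control peak at chr13:117024232-117024995 (764 bp, score 61) was centred 918 bp from the start, the farthest of any member counted as proximal. Its ERRα-knockdown peak lay at chr13:117024507-117025083 (577 bp, score 59). The HCFC1-knockdown peak at chr13:117025290-117025745 (456 bp, score 20) was centred 14 bp from the start, with a gap of 295 bp to the control peak.

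The last 4 occupied genes share only a name with the repair families or act beside them. Ercc6l2, a helicase-like protein linked to end joining, had chr13:63814732-63815782 (1051 bp, score 1021), chr13:63814696-63816268 (1573 bp, score 1483) and chr13:63814847-63815683 (837 bp, score 47) in the control, ERRα-knockdown and HCFC1-knockdown lists. Rad54l2, a chromatin remodeller of the same ATPase family, had chr9:106788790-106789454 (665 bp, score 279), chr9:106788146-106789885 (1740 bp, score 479) and chr9:106788820-106789296 (477 bp, score 77). The cohesin subunit Rad21 scored 217 in control cells and was overlapped in both knockdown lists. Ercc6l, a mitotic DNA translocase, had chrX:102156883-102157377 (495 bp, score 117) and chrX:102156464-102157793 (1330 bp, score 343) and no HCFC1-knockdown peak.

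Whether a control peak was overlapped after HCFC1 knockdown went with its score. The median control score was 252 for the 26 overlapped repair genes and 67 for the 26 others, against 184 and 55 among all genes. All 15 repair genes with a score of at least 200 were overlapped (78.2 to 100%), against 93.0% of all genes in that range. From 100 to 199 it was 6 of 11 (54.5%, 23.4 to 83.3%), against 67.8%. From 50 to 99 it was 5 of 16 (31.2%, 11 to 58.7%), against 45.6%, and from 13 to 49 it was 0 of 10 (0 to 30.8%), against 23.7%. Each interval included the share of all genes, but ranges of 10 to 16 genes give wide intervals that cannot show equal shares. The repair gene share was the lower one in every range below 200 and the higher one at 200 and above. Whether repair genes differ from others at equal control score was not tested. In the ERRα list the repair genes were all overlapped in every range, where all genes had 70.5% from 13 to 49, 95% from 50 to 99, 99.7% from 100 to 199 and 100% at 200 and above. Here too each interval included the share of all genes, with 10 to 16 repair genes in each range. Over all ranges together the interval for the 52 repair genes, 93.2 to 100%, lay above the share of all genes, 91.8%. That wider comparison does not match the genes by score.

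**Figure D3:**
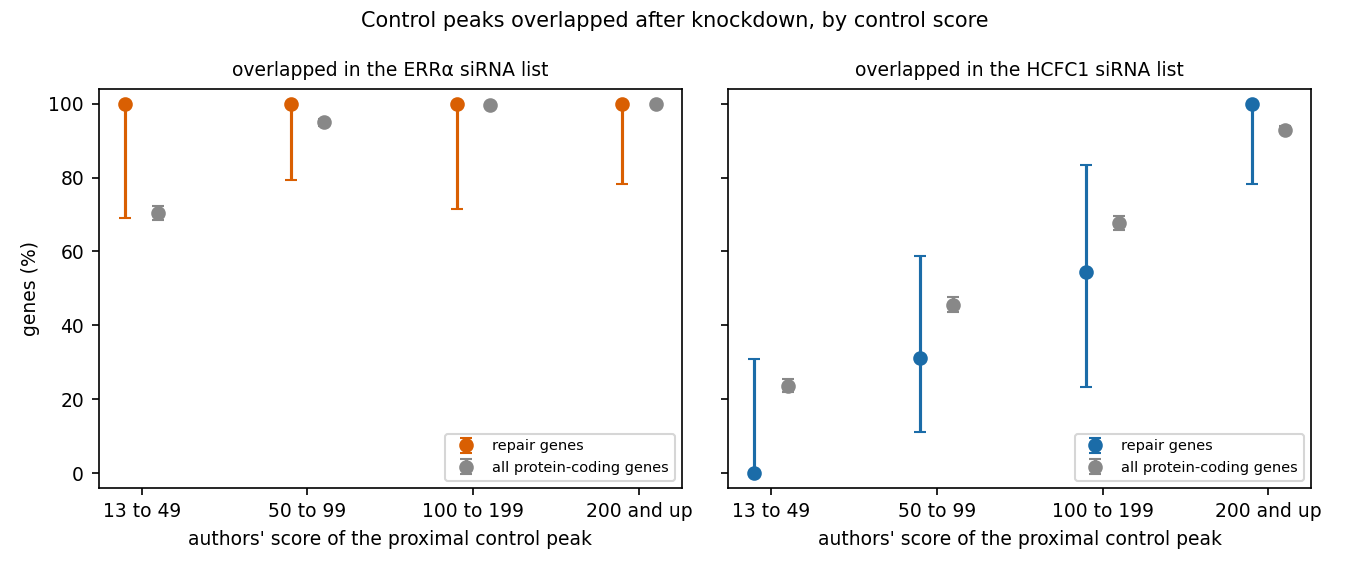
Share of genes (%) whose proximal control peak was overlapped in the ERRα-knockdown list (left) or the HCFC1-knockdown list (right), by range of control score, with exact binomial 95% intervals. After HCFC1 knockdown the repair genes go from 0% at 13 to 49 to 100% at 200 and above. All protein-coding genes go from 23.7% to 93.0%.

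The same split by score was seen in the pathways with genes on both sides of 100, except mismatch repair. There 0 of 2 genes at 100 and above were overlapped after HCFC1 knockdown, and 1 of 4 below. The checkpoint group and the other genes matched by name had no gene below 100. At control scores of 100 and above 21 of 26 repair genes were overlapped after HCFC1 knockdown (80.8%, against 82.5% of all genes), and below 100 it was 5 of 26 (19.2%, against 34.8%). The 5 high-scoring genes without an overlap were Msh6 (193), Msh3 (168), Ercc2 (149), Ercc3 (142) and Ercc6l (117). Mismatch repair contributed 2 of these, which were both of its genes at 100 or above, and nucleotide excision repair contributed 2 of its 5. In homologous recombination, end joining, single-strand break repair, the other PARP genes, the checkpoint group and the Fanconi group every gene at 100 or above was overlapped. These subsets hold 5 genes at most, which limits any comparison among them.

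The peaks that overlapped were not always alike in position or width. In the ERRα list 47 of the 52 overlaps were with a peak of the same gene and 5, with Parp12, Parp3 and Rad1 among them, were with a peak assigned to another gene. The centres lay a median of 92 bp apart, with a largest shift of 721 bp, and were within 200 bp for 40 genes. At Fancg, Rad18 and Rad23b the ERRα-knockdown peak overlapped more than 1 control peak. At Rad23b the weaker of these, 451 bp wide, shared only 9 bp with it. In the HCFC1-knockdown list 24 of 26 overlaps were with the same gene, the centres lay a median of 135 bp apart and 15 were within 200 bp. The same counts over all genes are not given here, so these are not shown to be particular to repair genes. The median width of the proximal peaks of repair genes was 912 bp in the control list, 968 bp in the ERRα list and 620 bp in the HCFC1-knockdown list, against 973, 1197 and 642 bp for all genes. A wide peak meets a 1 bp overlap more easily than a narrow one.

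Seen from the knockdown lists, few proximal peaks were without a counterpart. Of the 52 repair genes with a proximal ERRα-knockdown peak, 49 were overlapped in the control list, against 87.9% of all genes. The 3 others were Msh4, a meiotic factor, at chr3:153905511-153905900 (390 bp, score 44), Parp9, an interferon-responsive member, at chr16:35938418-35938805 (388 bp, score 56), and Xrcc3, a recombination mediator, at chr12:111812771-111813485 (715 bp, score 42). All 3 scores lay below the median score of proximal peaks in that list, 142 for repair genes and 183 for all genes. Of the 26 with a proximal HCFC1-knockdown peak, 25 were overlapped in the control list, against 91.8% of all genes, and Parp8 was the exception.

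Some repair genes share a start region with another gene, and each peak was assigned to 1 gene only. Adding peaks centred within 1000 bp of a RefSeq start, whichever gene was assigned, took the repair genes with a control peak from 52 to 60 of 67. Among all protein-coding genes the share went from 44.2% to 48.9%. For 8 repair genes without a proximal control peak under their own name, a control peak was centred within 1000 bp of the RefSeq start but assigned to a neighbour. Brca1, which directs breaks to recombination, had the highest score at any repair gene start in this way. The peak at chr11:101550843-101553442 (2600 bp, score 7663) was assigned to Nbr1 in control cells. The ERRα-knockdown peak at chr11:101550393-101553635 (3243 bp, score 11380) was assigned to Brca1 and ranked 31 of 9875 genes. After HCFC1 knockdown the peak at chr11:101551268-101553214 (1947 bp, score 1500) was again assigned to Nbr1. The Brca1 start was thus covered in all 3 lists while the gene's own name appeared at it in 1.

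The other 7 were spread over the pathways. Rad17, the loader of the checkpoint clamp, lay beside a control peak of score 2551 assigned to Ak6, with 4282 and 280 after ERRα and HCFC1 knockdown, both assigned to Taf9. Ercc8, the partner of Ercc6 in transcription-coupled repair, had the Ndufaf2 peak, with a control score of 789 and scores of 1200 and 58 in the ERRα- and HCFC1-knockdown lists. Fancf, an adaptor of the Fanconi core complex, had the Gas2 peak, with 319, 582 and 111 in the same order, and the alternative clamp subunit Rad9b had the Vps29 peak, with 290, 535 and 69. These 4 starts, like that of Brca1, had a peak in all 3 lists. At Xrcc6 the Desi1 peak scored 116 in control cells and 157 after ERRα knockdown. Parp2, a break sensor like Parp1, had the Rpph1 peak of score 47, and after ERRα knockdown its own peak at chr14:50807827-50808183 (357 bp, score 35). Xrcc3 had the Zfyve21 peak of score 18.

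**Figure D4:**
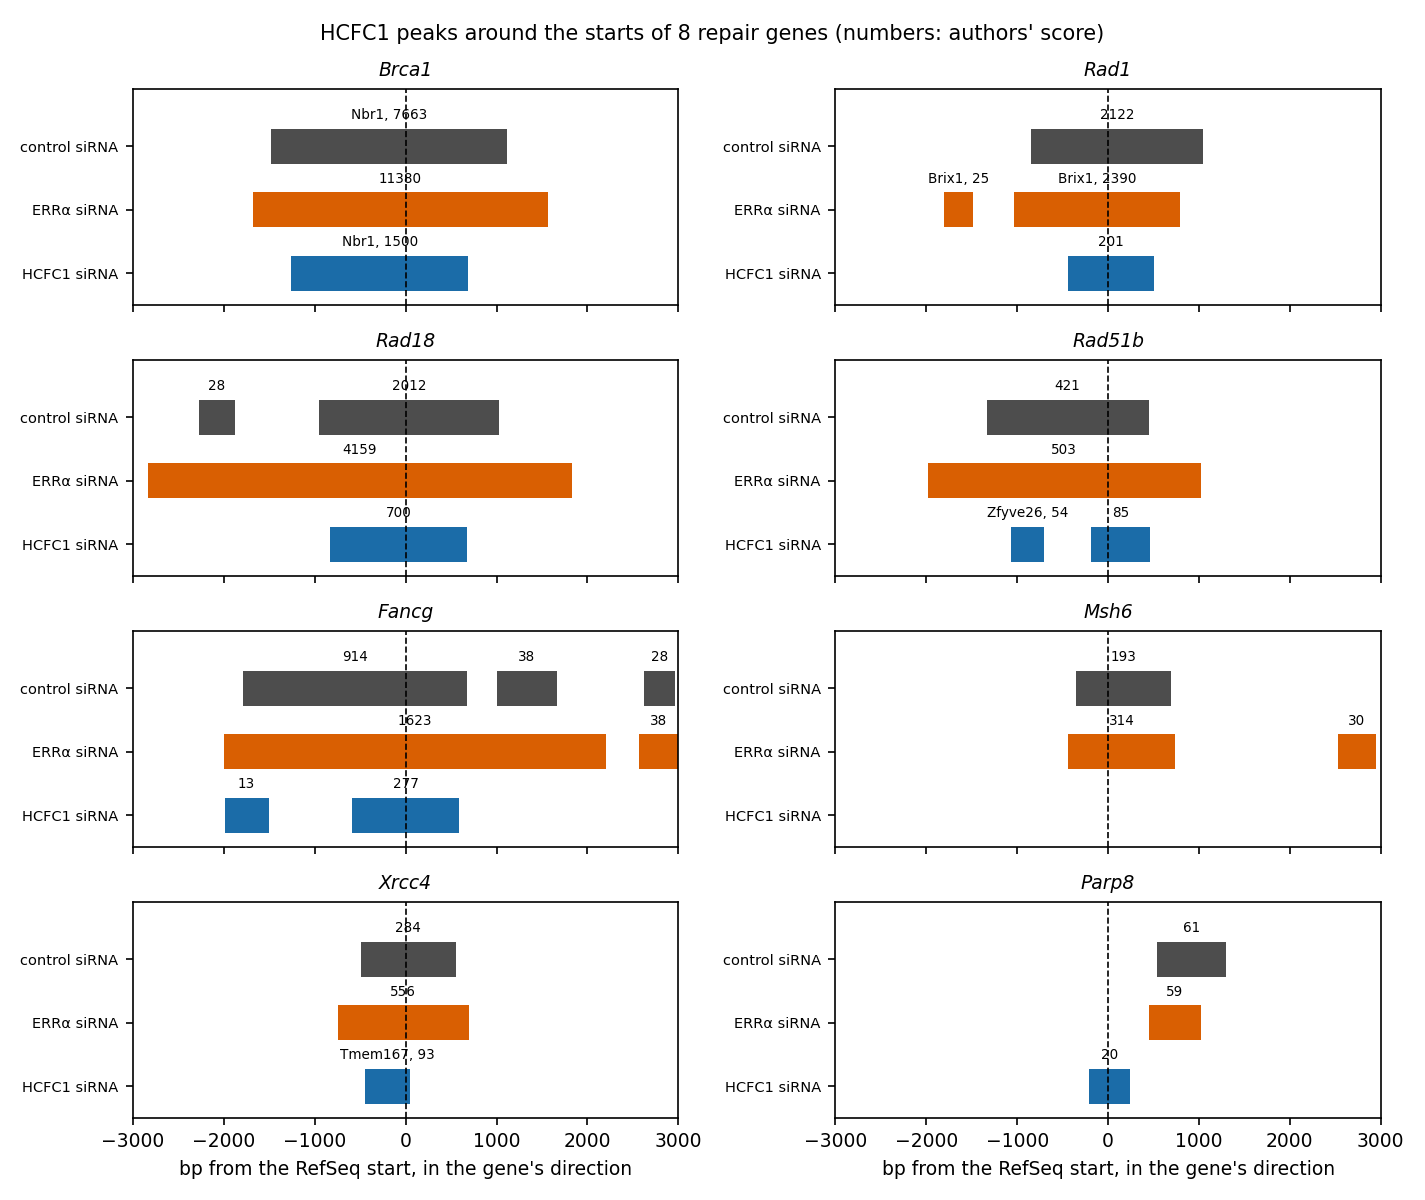
Extent of HCFC1 peaks around the RefSeq start (dashed line) of 8 repair genes in the 3 lists, in bp in the gene's direction. The number over a bar is the authors' score, with the assigned gene where it is a neighbour. Brca1 is covered in all 3 lists with scores of 7663, 11380 and 1500, Msh6 has no bar after HCFC1 knockdown, and the Parp8 bar shifts to the start.

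Counted at RefSeq starts, whichever gene was assigned, 45 of the 50 repair genes with a window had a control peak (90%, 78.2 to 96.7%), against 50.0% of the 17492 protein-coding genes with one. After ERRα knockdown it was 46 of 50, against 50.6%, and after HCFC1 knockdown 25 of 50 (50.0%, 35.5 to 64.5%), against 33.4%. By this rule the HCFC1-knockdown interval lay above the share of all genes, unlike that by the deposited distance. By either the deposited distance or the RefSeq start, 60 of the 67 genes had a control peak near their start, against 48.9% of all genes. The numbers were 61 in the ERRα-knockdown list, against 49.7%, and 32 in the HCFC1-knockdown list, against 32.7%. The 5 genes with no such peak in any list were Fancb, Fancd2, Fancd2os, Rad21l and Rad51ap2. Fancd2 has no RefSeq window and was judged by the deposited distance alone, and both Fancd2 and Fancd2os had distal control peaks. In the other direction, 6 of the 52 proximal control peaks (11.5%, against 7.99% of all genes) also held the start of another protein-coding gene, with Rad1, Rad51ap1, Rad51b, Rad51c and Xrcc4 among them.

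Away from the starts the peaks were weak. In control cells 38 peaks of 26 repair genes lay between 1000 and 20000 bp from a start, with scores from 15 to 61, and 14 were overlapped after ERRα knockdown and 3 after HCFC1 knockdown. A further 15 lay beyond 20000 bp, with scores up to 52, where the knockdown lists hold no peaks, so these were not compared. Parp11 and Parp4 each had a weaker proximal control peak beside the one used, with scores of 34 and 18. No repair gene with only distal peaks reached a score of 100. The ERRα-knockdown list had 31 distal peaks, 12 of them overlapped in control cells, and the HCFC1-knockdown list had 7, with 5 overlapped. The high scores of the repair genes were all at their starts. The control list as a whole had a median score of 35, with 11343 of its 36147 peaks within 1000 bp of a start. Distal scores and overlaps of all genes are not given here, so none of this is shown to be particular to repair genes.

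The letters of the promoter windows were searched on both strands for 7 short motifs, as a description. E2F letters, TTTCCCGC or TTTGGCGC, were found in 7 of the 50 repair gene windows (14.0%), against 2.31% of all 17492. Among windows with a control peak at the start the shares were 15.6% and 3.62%. The 7 genes were Brca2, Fancg, Msh3, Msh5, Msh6, Rad51c and Xrcc6, in which the match lay between positions -202 and 22, counted from the start base as 0. NRF1 letters, GCATGCGC, were found in 7 other genes (14.0%, against 3.94%), which were Ercc6, Fanci, Fancm, Mlh3, Parp2, Parp6 and Xrcc5. Among windows with a control peak these shares were 15.6% and 6.48%. The E2F and NRF1 genes were separate sets.

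Of the other 5 motifs, the THAP11/ZFP143 core was in 4.00% of repair gene windows, against 5.61% of all, and among windows with a control peak in 4.44% against 7.72%. The Rad18 match, TACAGCTCC, began at position -55 and the Rad51b match, TACAATTCC, at position -64. ETS letters, CCGGAAG, were in 12% of repair gene windows against 12.9%, among them Rad1, Ercc1 and Xrcc4, and among windows with a control peak in 13.3% against 22.0%. CREB letters, TGACGTCA, were in Brca2 and Rad51c (4.00% against 2.54%), and YY1 letters, AAGATGGC, in none of the 50, against 3.57% of all windows and 5.59% of those with a control peak. The letters of an ERR element, CAAGGTCA, were in 1 repair gene window, that of Fancl (2%, against 1.56%), and lay outside the Fancl peaks of the control and ERRα-knockdown lists. A match in letters does not show a bound site. The match to an E2F motif and a peak after HCFC1 knockdown did not go together in one direction: Brca2, Fancg and Xrcc6 had such a peak, while Msh3, Msh5, Msh6 and Rad51c had none.

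Repair genes that the name rule leaves out were listed by pathway for comparison. Of 92 such genes, 68 had a proximal control peak (73.9%, against 44.2% of all genes), with a median score of 135. Of these, 66 were overlapped after ERRα knockdown, against 91.8% of all genes, and 39 after HCFC1 knockdown (57.4%, against 59.7%). Base excision and single-strand break repair had 18 of 21 genes, led by Fen1, the flap endonuclease (6582), and the glycosylase Nthl1 (2011). Nucleotide excision repair had 11 of 15, led by the TFIIH subunit Gtf2h4 (3484) and DNA ligase I, Lig1 (2517). In mismatch repair the nuclease Exo1 (2156) was the 1 of 3. Exo1, unlike its partners Msh3 and Msh6, was overlapped after HCFC1 knockdown.

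The rest of the outside lists had lower medians. Homologous recombination had 10 of 14, led by Nbn, a subunit of the complex with Rad50 (507), and Rmi1, a partner of the Blm helicase (291). Fanconi and crosslink repair had 6 of 10, led by the Brca2 partner Palb2 (540) and the core complex subunit Faap100 (136). End joining had 6 of 8, led by the polymerase Poll (397) and the ligase Lig4 (134). Checkpoint and damage tolerance had 16 of 21, led by the ubiquitin ligase Shprh (595) and the clamp subunit Hus1 (496). The 2 genes without an ERRα-knockdown overlap were the glycosylase Neil3 (40) and the polymerase subunit Mad2l2 (38), both at low scores. With Rad1, Rad9a and Hus1, all 3 subunits of the checkpoint clamp had peaks in all 3 lists by overlap.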

How the data were processed

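HCFC1 ChIP-seq peaks were analysed for Hepa1-6 cells under 3 siRNA conditions, with 1 list per condition. The IgG libraries were not analysed here. Per the submitters' processing notes, HOMER 4.11.1, MACS2 2.1.1.20160309, Picard 2.0.1 and BWA 0.7.12 were used with mm10, and the role of each is not stated. The authors deposited a whole-number score for each peak, with 13 as the lowest in every list and no stated scale. Other deposited columns, by the authors, give position, annotation, distance to the nearest start and gene. From these, the proximal peak (at most 1000 bp) with the highest score was taken for each gene, and overlap was set at 1 bp or more. Shares carry exact Clopper-Pearson 95% intervals. All protein-coding genes of the RefSeq table (GRCm38.p6) served as background. The motif search used RefSeq promoter windows, which were found for 50 of 67 members. Overlap counting was tested on simulated data. Python 3.11.15, pandas 2.3.3 and scipy 1.17.1 were used.

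The members and lists were chosen with earlier results of these data known. Every member with a proximal control peak is named, apart from a few genes that are counted but not reported here by name. Positions are given for the 2 highest-scoring members of each pathway, members not overlapped in a knockdown list and members with a peak in a knockdown list only. Outside the name rule, the 2 highest-scoring genes of each pathway are named. Other distances, overlap rules, score minimums, promoter labels and list lengths were tried as alternatives.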

Additional observations from a re-analysis of the deposited data

How the results depend on the processing

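With 1 list per condition there is no replicate spread, depth is unknown, and the knockdown lists hold no peak beyond 20000 bp of a start, so a peak missing from a list is not shown to be absent. Of 39 alternative values for the 5 overall shares, 28 stayed within the 95% interval of the reported value and 11 did not. The share of repair genes with a proximal control peak (77.6%) was 90% for any peak at the RefSeq start, 43.3% by the authors' promoter label and 64.2% with lists of equal length. The share in the ERRα-knockdown list was 92.0% by RefSeq start and 26.9% by promoter label, and that in the HCFC1-knockdown list 26.9% by promoter label. Overlap in the ERRα-knockdown list was 90.4% when the gene needed a proximal peak of its own there, 76.9% with centres within 200 bp and 88.5% with reciprocal overlap of 50%. Overlap in the HCFC1-knockdown list fell to 28.8% under each of the last 2 rules. Of these alternatives, the share of all genes is given only for the RefSeq start (50.0% in the control and 50.6% in the ERRα-knockdown list). The other values therefore do not show whether the difference from all genes holds under those rules. The RefSeq start rule and a version of equal length with the control list limited to 20000 bp were chosen after seeing the data. Of 189 values by pathway, 19 left their interval. With lists of equal length the Fanconi genes went from 7 of 10 with a proximal control peak to 3 of 10. All 3 were then overlapped after HCFC1 knockdown, against 3 of 7 in the main count. Mismatch repair went from 1 of 6 overlapped after HCFC1 knockdown to 0 of 6 with centres within 200 bp, with reciprocal overlap and with a score of at least 30, and homologous recombination to 2 of 11 with reciprocal overlap. The cause was not tested. No paired analysis was possible because each condition has 1 list.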
